A study of Mus musculus with 12 samples.

Results

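The genes described here are 48 members of the interferon response and of nucleic acid sensing in mouse stromal vascular cells, chosen by name as interferon-stimulated genes, their activators and the cytosolic sensors that start the response. The rule used gene names and no measured value, though the members were chosen with earlier results of these data known. Each of the 2 deposited tables lists 47 of them, among 19262 genes for the knockout comparison and 16785 for the transgene comparison, and Irf9 was not analysed here. A gene was tested when its scaled signal, the authors' read count brought to a common library size, reached 1 in 3 or more of the 6 libraries of a comparison. This left 40 members among 12649 genes in the first comparison and 45 among 12634 in the second.

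Messenger RNA was measured in primary cultures of the stromal vascular fraction, the non-adipocyte cells of white adipose tissue, from mice aged 6 weeks, in 4 groups of 3 libraries. WT cells came from C57BL/6 mice, and TKO cells carried deletions of miR-26b, miR-26a-2 and miR-26a-1, with both grown to confluency. CTL and Dox cells carried the M2rtTA activator with an inducible transgene, eGFP.miR-26a, and the Dox cells alone received doxycycline, labelled 1 mg/ml, for 4 days. No group received doxycycline without the transgene, so an effect of the drug and an effect of miR-26a cannot be told apart. The labels do not say whether the libraries of a group came from separate animals or cultures, so p-values measure only the spread between these libraries.

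Cells recognise foreign or misplaced nucleic acid through RIG-I (Ddx58) and MDA5 (Ifih1), which bind RNA and signal through Mavs, and through cGAS, which binds DNA and signals through STING (Tmem173). These routes activate Irf3 and Irf7 and induce type I interferon, which binds the Ifnar1 and Ifnar2 receptor and turns on a transcription complex that holds Stat2 and Irf9. That complex binds the interferon-stimulated response element (ISRE) in the promoters of antiviral genes such as Isg15, the Oas and Ifit families and the guanylate-binding proteins. Stromal cells express many of these genes at a low level without infection.

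The microRNAs altered in these cells are shown first because both share a single seed, the stretch that pairs with target messages. In the RefSeq sequences (GRCm38.p6) below, capitals mark bases 2 to 8, the seed.
mmu-miR-26a-5p: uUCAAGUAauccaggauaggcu
mmu-miR-26b-5p: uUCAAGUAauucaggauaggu
The letters TACTTGA pair with bases 2 to 8. A shorter pairing followed by an A reads ACTTGAA. One of these, or the 8 letters that join them, was present in the annotated 3' UTR (GENCODE M21 transcripts) of 3 members, Ifih1, Ifnar1 and Parp14. They were 7.5% of the 40 tested members with a 3' UTR in the knockout comparison, against 21.8% of 11834 genes tested with one. The members' 3' UTRs were shorter, with a median of 679 bases against 1199.5. Parp14 was the only called member with a match, and its 2 matches on chromosome 16 (GRCm38, minus strand) are printed with the matching letters in capitals.
Parp14 chr16:35834507-35834513: gaaaatgaatcTACTTGAgagccaatcgc
Parp14 chr16:35833930-35833936: agcttgtgataACTTGAAagctttacgta
A match is a description of the sequence and not a site of action.

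The second set of sequences shows what many members share in their promoters. RefSeq promoter windows of 300 bases, from 250 before to 50 after the annotated start, were found for 37 members. For the 4 with more than 1 window, the one nearest the annotated transcript start was used. The ISRE core, written as TTTCNNTTTC and searched on both strands, was present in 17 of the 37 windows (45.95%), against 3.44% of all 32851 windows. A second motif, TTCNNNGAA, the gamma-activated sequence (GAS), was present in 13 of the 37 (35.1%), against 8.3% of all windows. These shares set 1 window per member against all windows, which can be several per gene. The members were chosen as genes of this response, so the shares describe the list and are not a test. Of the 23 members called in either comparison below, 18 had a window and 8 held an ISRE core in the window used. Gbp3 is not among the 8, but another of its windows held 2 cores, and with any window counted 18 of the 37 members held one. The 8 stretches are printed 5' to 3' on the gene's strand (GRCm38.p6), with the core matches in capitals, and overlapping matches run together.
Isg15 chr4:156200863-156200908, minus strand: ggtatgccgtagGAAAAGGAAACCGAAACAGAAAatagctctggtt
Bst2 chr8:71537575-71537614, minus strand: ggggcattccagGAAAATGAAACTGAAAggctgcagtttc
B2m chr2:122147536-122147569, plus strand: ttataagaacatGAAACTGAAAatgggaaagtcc
Ddx58 chr4:40239802-40239835, minus strand: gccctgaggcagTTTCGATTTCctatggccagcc
Eif2ak2 chr17:78882533-78882566, minus strand: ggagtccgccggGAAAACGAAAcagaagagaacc
Gbp7 chr3:142530271-142530304, plus strand: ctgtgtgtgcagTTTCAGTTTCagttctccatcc
Ifitm3 chr7:141010704-141010754, minus strand: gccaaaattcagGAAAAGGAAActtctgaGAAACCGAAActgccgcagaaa
Stat2 chr10:128270264-128270297, plus strand: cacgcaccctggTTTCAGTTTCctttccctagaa
Isg15 held 3 overlapping matches between bases -78 and -57 from the start, and Bst2 held 2 between -130 and -115. The matches of Ddx58, Eif2ak2 and Ifitm3 lay just after the start.

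**Figure D1:**
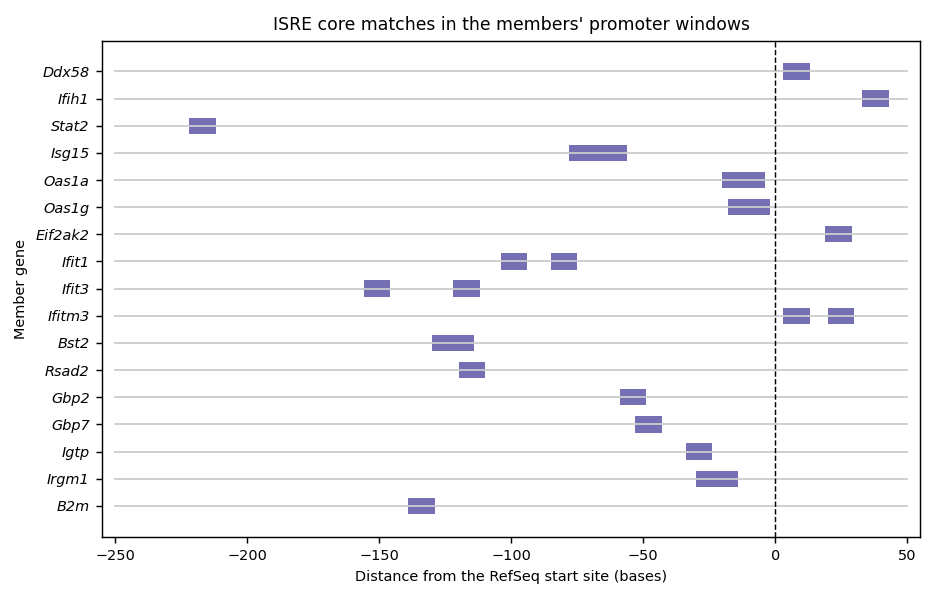
Positions of ISRE core matches (purple bars, 10 bases each) along the promoter windows of the 17 members that held one in the window used, as distance from the RefSeq start site in bases. Most matches lie before the start, those of Ddx58, Ifih1, Eif2ak2 and Ifitm3 after it.

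Loss of miR-26 was addressed by the comparison of TKO with WT, and it split the members. Of 40 tested, 8 were higher and 8 lower by limma at an adjusted p under 0.05, while 23.2% of all genes tested were called higher and 22.7% lower. The called share, 40%, was near the 45.8% of all genes, so the members as a list did not stand apart in number of calls. The higher members included Ifi27, Bst2 and Tmem173 and the antigen-processing genes Psmb8 and Tap1, and the lower ones B2m, Gbp7, Ddx58 and Stat2. The median log2 fold change of the members was -0.12, against -0.00085 over all genes tested. It was 0.01 without TKO library 3, so its sign rests on that library. The signals of all TKO libraries lay above all WT libraries for 9 members, and below them for 8, while 29.4% of all genes tested were separated upwards and 29.4% downwards. With library sizes alone as the scale, which moved the median of all genes to 0.11, 9 members were called higher and 5 lower. Over all 12703 genes tested on that scale, 3840 were called higher and 1916 lower. Fold changes over all genes followed transcript length (Spearman correlation -0.32) and GC content (0.31). A trend in both explained 15.7% of their variance, against 1.9% in Dox against CTL. The part of this trend in the split of the members was not tested, and fits with it taken out are given below.

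**Figure D2:**
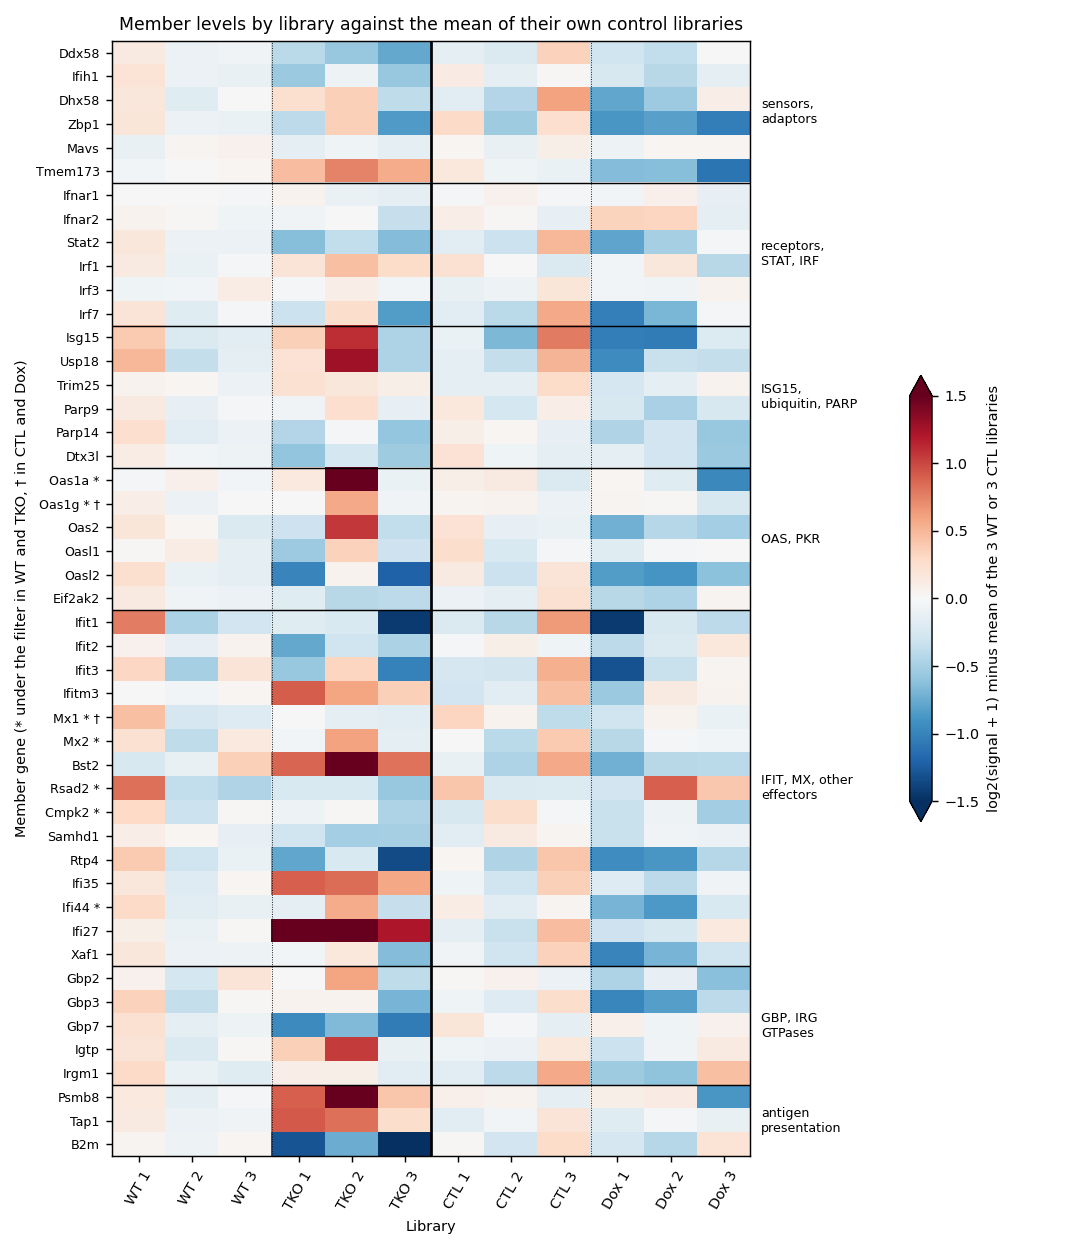
Heat map of the 47 listed members (rows, by role) in the 12 libraries (columns). Colour is log2(signal + 1) minus the mean of the 3 WT or 3 CTL libraries of the same table, with values past 1.5 in either direction at the end colours. TKO library 2 is the highest of its group for most members, and most Dox columns are blue.

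Among the sensors and adaptors, Tmem173 (STING), the adaptor that relays the cGAS signal, was higher in TKO. Its scaled signal was 55.02, 56.7 and 57.6 in WT libraries 1, 2 and 3 and 78.2, 95.2 and 83.5 in TKO libraries 1, 2 and 3. The groups did not overlap, and the log2 fold change was 0.59 (SE 0.08, adjusted p = 0.00199, limma). Ddx58, the RIG-I sensor of viral RNA, went the other way, with 75.1, 64.3 and 65.8 in WT and 51.2, 45.9 and 39.6 in TKO. Every TKO library was below every WT library, with a log2 fold change of -0.58 (SE 0.11, adjusted p = 0.00606). Both calls held under all 17 alternatives run. The other sensors and adaptors, Ifih1, Dhx58, Zbp1 and Mavs, did not pass the test.

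Of the receptor subunits and transcription factors, Stat2, which carries the interferon receptor's signal to the nucleus, was lower in TKO. Its signal was 95.8, 79.4 and 80.0 in WT and 54.1, 65.3 and 53.5 in TKO. The groups were apart, with a log2 fold change of -0.56 (SE 0.11, adjusted p = 0.00733). Irf1, a transcription factor of interferon and antigen presentation genes, had signals of 20.2, 17.1 and 17.96 in WT and 21.1, 25.5 and 22.4 in TKO. The lowest TKO library lay just above the highest WT library, with a log2 fold change of 0.31 (SE 0.10, adjusted p = 0.0430). That call was lost without WT library 2 (adjusted p = 0.149), WT library 3 (0.114), TKO library 2 (0.0935) or TKO library 3 (0.0745). With the trend in transcript length and GC content taken out of each library, the log2 fold change of Irf1 was 0.17 (adjusted p = 0.141), and its call was kept under 9 of 17 alternatives. Ifnar1, the type I interferon receptor chain, had the highest signal per kilobase of the group. Its signal was 95.2, 95.2 and 93.5 in WT and 98.0, 88.6 and 86.2 in TKO, overlapping ranges with a log2 fold change of -0.06 (SE 0.07).

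In the ISG15 pathway group, 1 of 6 tested members was called. Dtx3l, a ubiquitin ligase that works with Parp9, had WT signals of 26.95, 23.96 and 23.5 and TKO signals of 16.1, 20.53 and 16.9. All TKO libraries were lower, with a log2 fold change of -0.46 (SE 0.11, adjusted p = 0.0137), and the call was kept under 13 of 17 alternatives. The adjusted p was 0.0540 without WT library 1 and 0.0599 with library sizes alone as the scale. With the length and GC trend taken out the log2 fold change was -0.26 (0.141, or 0.169 with a replicate block as well). Dtx3l shares 8.6% of its exon bases with Parp9 on the other strand, and whether counting used strand is not given in the sources used here. Isg15, the ubiquitin-like modifier that is a standard marker of the response, had WT signals of 6.20, 3.72 and 3.90 and TKO signals of 6.03, 10.8 and 2.99. The TKO libraries spanned the WT range, and the log2 fold change of 0.33 (SE 0.39) did not pass (adjusted p = 0.518) and was -0.05 without TKO library 2.

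The OAS enzymes make the activator of RNase L, and PKR (Eif2ak2) stops translation when it binds double-stranded RNA. Eif2ak2 had WT signals of 85.4, 74.7 and 73.1 and TKO signals of 68.4, 57.8 and 58.7. The groups were separate, with a log2 fold change of -0.33 (SE 0.09, adjusted p = 0.0280). The adjusted p was between 0.0622 and 0.0903 without WT library 1, WT library 2, TKO library 2 or TKO library 3. The log2 fold change was -0.21 (adjusted p = 0.0764) with library sizes alone as the scale and -0.14 (0.172, or 0.112 with a replicate block) with the length and GC trend taken out. The Eif2ak2 call was thus kept under 10 of 17 alternatives. Oasl2, an OAS-like protein, had WT signals of 20.2, 15.7 and 15.4 and TKO signals of 8.03, 17.6 and 6.74. TKO libraries 1 and 3 were below WT and TKO library 2 was inside its range, so the log2 fold change of -0.72 (SE 0.32) did not pass (adjusted p = 0.110). Without TKO library 2 it was -1.11 (adjusted p = 0.00263).

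The antiviral effectors held 6 of the 16 calls. Ifi27, a mitochondrial interferon-induced protein, had the largest fitted log2 fold change of the tested members, with a rise from WT signals of 33.2, 29.1 and 31.5 to TKO signals of 100.2, 98.8 and 73.6. The groups were far apart, 2.91-fold in means, with a log2 fold change of 1.498 (SE 0.13, adjusted p = 0.000434). Ifi35, an interferon-induced leucine zipper protein, rose from 10.8, 8.10 and 9.63 to 18.4, 17.6 and 14.6. The log2 fold change was 0.77 (SE 0.13, adjusted p = 0.00383), or 0.51 with the length and GC trend taken out, and 17.4% of its exon bases are covered by a gene on the other strand, Gm11626. Ifitm3, which blocks fusion of viruses with endosomes, rose from 138, 133 and 140 to 257, 206 and 175. All TKO libraries were above WT, with a log2 fold change of 0.62 (SE 0.14, adjusted p = 0.0105). It shares 10.02% of its 50-base stretches with other genes, Ifitm2 among them, and its call was lost with that trend taken out (log2 fold change 0.31, adjusted p = 0.0803, or 0.0746 with a replicate block).

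Bst2 (tetherin), which holds budding viruses at the cell surface, had WT signals of 10.997, 12.2 and 17.1 and TKO signals of 25.1, 79.5 and 23.9. TKO library 2 was far above the other TKO libraries, though all TKO libraries were above WT, and the log2 fold change was 1.398 (SE 0.45, adjusted p = 0.0435), 3.19-fold in means. Without TKO library 2 the log2 fold change was 0.85 (adjusted p = 0.0124). The Bst2 call was kept under 11 of 17 alternatives. It was lost without WT library 1, 2 or 3 (adjusted p = 0.129, 0.120 and 0.0644) and without a filter (0.0576). Taking out the length and GC trend also ended it (0.0795, or 0.0865 with a replicate block). Beside it, the summed signal of the 17 listed of 24 leukocyte markers, which include the macrophage genes Lyz2 and C1qa, was 367 in TKO library 2. It was between 48.6 and 85.0 in WT and 71.9 and 63.2 in TKO libraries 1 and 3. Of 15 such markers tested, 14 were above 0 and 0 were called. The part of these cells in the level of Bst2 was not tested. Fewer cells of a type and less RNA per cell cannot be told apart in such bulk libraries.

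Ifit2 and Samhd1 were the effectors that fell. Samhd1, which depletes the nucleotides needed for viral DNA synthesis, had WT signals of 144, 137 and 124 and TKO signals of 109, 94.1 and 95.2. All TKO libraries were lower, with a log2 fold change of -0.44 (SE 0.09, adjusted p = 0.00762). Ifit2, which binds viral RNA, had WT signals of 44.0, 38.4 and 43.6 and TKO signals of 24.2, 34.0 and 29.9. The groups did not overlap, with a log2 fold change of -0.51 (SE 0.13, adjusted p = 0.0179), but the adjusted p was 0.0663 without WT library 1 and 0.0592 without WT library 3. It was 0.0708 with library sizes alone as the scale. With the length and GC trend taken out the log2 fold change of Ifit2 was -0.31 (adjusted p = 0.121, or 0.151 with a replicate block), so the call was kept under 12 of 17 alternatives.

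Of the interferon-induced GTPases, which attack the membranes around intracellular pathogens, Gbp7 was called. It had WT signals of 12.8, 9.68 and 10.2 and TKO signals of 5.09, 6.50 and 4.72, with every TKO library below every WT library. The log2 fold change was -0.89 (SE 0.15, adjusted p = 0.00361), and other genes, Gm43802 and Gbp3 among them, hold 12.8% of its 50-base stretches. Gm43802 overlaps 11.3% of the exon bases of Gbp7 on the same strand. The Gbp7 call was kept under 16 of 17 alternatives and lost with the length and GC trend taken out together with a replicate block (adjusted p = 0.0547). Irgm1, the highest of the group per kilobase, had WT signals of 47.4, 36.2 and 33.9 and TKO signals of 41.5, 41.4 and 34.5. The ranges overlapped, with a log2 fold change of 0.01 (SE 0.14) whose sign changed between alternatives.

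All 3 antigen presentation members were called, in both directions. B2m, the light chain of every class I molecule and the highest member per kilobase, had WT signals of 1153, 1062 and 1146 and TKO signals of 454, 665 and 355. The TKO libraries were all far below WT, 2.28-fold in means, with a log2 fold change of -1.23 (SE 0.21, adjusted p = 0.00439). Psmb8, an immunoproteasome subunit, had WT signals of 4.45, 3.47 and 3.85 and TKO signals of 8.14, 14.98 and 5.55. TKO library 2 was highest and no TKO library was inside the WT range, with a log2 fold change of 1.01 (SE 0.31, adjusted p = 0.0351). Without TKO library 2 it was 0.66 (adjusted p = 0.0250). Tap1, which pumps peptides into the endoplasmic reticulum, had WT signals of 11.703, 9.83 and 10.2 and TKO signals of 20.8, 19.5 and 12.8. The groups were separate, with a log2 fold change of 0.67 (SE 0.18, adjusted p = 0.0225).

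The Psmb8 call was lost without WT library 1, 2 or 3 (adjusted p = 0.0752, 0.109 and 0.0861) or TKO library 1 (0.0592), and without a filter (0.0502). The Tap1 call was lost without WT library 2 or 3 (0.0803 and 0.0664) or TKO library 1 or 2 (0.0535 and 0.0546). Both were also lost with that trend taken out (0.0643 for Psmb8, or 0.0787 with a replicate block, and 0.0549 for Tap1). Genes on the other strand cover 11.4% of the exon bases of Psmb8 and 7.2% of those of Tap1. The B2m call held under all 17 alternatives.

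**Figure D3:**
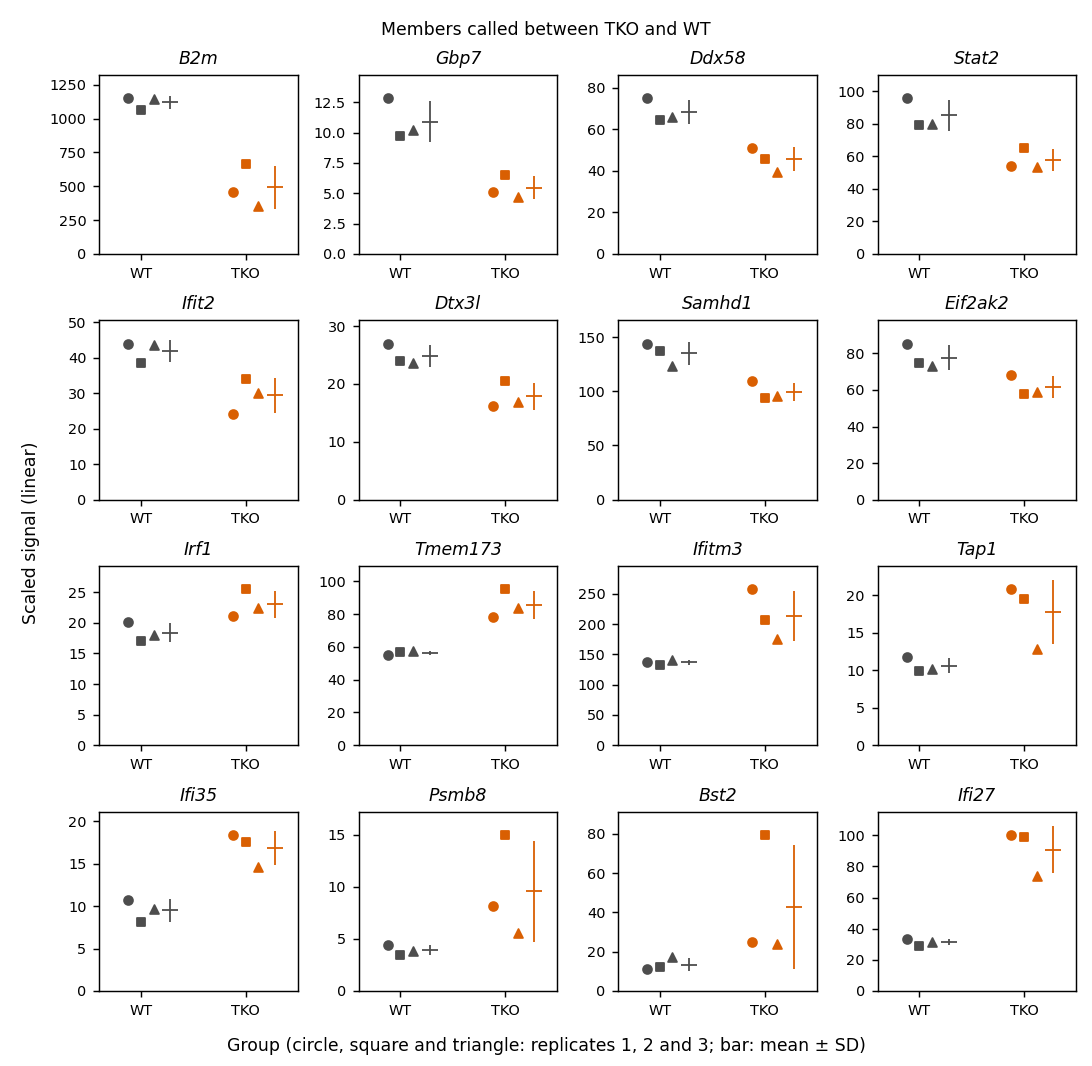
Scaled signal (linear axis from 0) of the 16 members called between TKO and WT, in each library, with the mean ± SD of each group (n = 3). Points are libraries and shapes the replicate numbers. B2m and Gbp7 show the largest falls, Ifi27 and Bst2 the largest rises, and TKO library 2 stands above the other TKO libraries for Bst2 and Psmb8.

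Across the members, TKO library 2 was the highest of its group for 28 of 40 members and TKO library 3 the lowest for 32, and WT library 1 was the highest of its group for 33. Without TKO library 2, whose leukocyte markers were high, 6 members were called higher and 12 lower, against 2818 and 2739 of all 12649 genes. The members newly called lower were Oasl2, Parp14, Rtp4 and Zbp1, with log2 fold changes of -1.11, -0.51, -1.06 and -0.62. The counts of members called higher were 4 without WT library 2 and 4 without WT library 3, and 5 were called lower without WT library 1. Over all genes, 2079 were called higher without WT library 2 and 2446 without WT library 3, against 2930 with every library. Lower calls over all genes were 2014 without WT library 1, against 2866. Adipocyte markers summed to 115.5 and 112.5 in TKO libraries 1 and 2, and to between 28.1 and 30.9 in WT and TKO library 3. Their part in the calls was not tested. The 7 calls that held under every alternative run were Ifi27, Tmem173 and Ifi35, higher, and B2m, Ddx58, Stat2 and Samhd1, lower. The 7 members under the filter, Oas1a, Oas1g, Mx1, Mx2, Rsad2, Cmpk2 and Ifi44, had signals from 0.017 to 4.91.

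Other genes of the pathway, 80 tested from a list of 97 that are not members, gave a like picture, with 12 called higher and 20 lower. Their called share was 40%, also near that of all genes. Ifitm2, a relative of Ifitm3, fell from WT signals of 121, 116 and 135 to TKO signals of 57.0, 52.4 and 44.7, with a log2 fold change of -1.26 (SE 0.11, adjusted p = 0.00039). Ifitm3 and Ifitm2 went in opposite directions, and the part of reads from stretches they share was not tested. The DNA sensor cGAS (Mb21d1), which feeds STING, fell from 13.1, 12.8 and 11.02 to 7.52, 6.92 and 8.10, while STING itself rose. The log2 fold change of Mb21d1 was -0.65 (SE 0.10, adjusted p = 0.00279), and its groups did not overlap.

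Other falls among the 10 largest changes were those of the DNA-binding protein Ifi204 (-0.89), the adaptor Tank (-0.70), the repressor Irf2 (-0.66) and the receptor chain Il10rb (-0.65). The rises were those of Socs1, an inhibitor of interferon signalling (1.00), Psme2, a proteasome activator subunit (0.89), the class I molecule H2-T23 (0.79) and the GTPase Ifi47 (0.73). Of the 9 other antigen presentation genes tested, 4 were higher, Psme2, H2-T23, Tap2 and Psmb10, and Erap1 was lower. Some of these calls were lost with 1 library left out, as were calls over all genes. Those numbered 4253, 3938 and 4663 without WT library 1, 2 or 3, against 5796 with every library. The adjusted p of Ifi204 was 0.139 without WT library 1, that of H2-T23 0.0556 without WT library 2, and that of Ifi47 0.0766 without WT library 2. Without WT library 2 the pathway counts were 6 higher and 12 lower.

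Induction of miR-26a was addressed by the comparison of Dox with CTL, in which the members were mostly lower with doxycycline. By limma without pairing, 0 of 45 tested members were called, as were 0.0% of all genes higher and 0.0% lower. At an unadjusted p under 0.05 there were 10 members, and 748 of all 12634 genes. With edgeR 0 members were called, and with DESeq2 3, Oasl2, Tmem173 and Zbp1. Over all genes DESeq2 called 99, and it gave 2450 no adjusted p. The fitted log2 fold change was below 0 for 42 of 45 members, with a median of -0.28. Over all 12634 genes tested it was below 0 for 5962, with a median of 0.01. The groups did not overlap for 10 members, all lower in Dox, against 5.66% of all genes separated downwards and 6.5% upwards.

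Libraries with the same replicate number deviated together in this comparison, so the fit was also run with the number as a block, here called the paired fit. The columns of Dox libraries 2 and 3 end in the same suffix, and their replicate numbers were taken from the rest of the name. It called 8 members lower and 0 higher, while it called 1.54% of all genes lower and 0.562% higher. The called members were Gbp3, Isg15, Oasl2, Parp14, Rtp4, Tmem173, Xaf1 and Zbp1, 17.8% of those tested. In pair 1, 42 of 45 members were lower in Dox, in pair 2, 29, and in pair 3, 41. In all pairs 27 members (60%) were lower and 0 higher, against 18.2% of all genes lower in all pairs. Without pair 1, 3 members were called lower and 1 higher (Rsad2), without pair 2, 23 lower, and without pair 3, 14 lower. Over all genes, 99 were called lower and 35 higher without pair 1. Lower calls over all genes were 1001 without pair 2 and 357 without pair 3.

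Tmem173 (STING) was the member with the smallest adjusted p. Its signal was 74.5, 63.6 and 62.3 in CTL libraries 1, 2 and 3 and 42.0, 42.5 and 30.7 in Dox libraries 1, 2 and 3. Every Dox library was below every CTL library, 1.74-fold in means, with a log2 fold change of -0.79 (SE 0.09, adjusted p = 0.0100 in the paired fit, 0.427 unpaired). In the authors' deposited table its false discovery rate was 0.0461, with a log2 fold change of -0.80. No other member passed 0.05 in the authors' test, with Oasl2 at 0.205 and Zbp1 at 0.483. Zbp1, a sensor of Z-form nucleic acid that can trigger cell death, had CTL signals of 13.8, 7.38 and 13.5 and Dox signals of 5.64, 5.89 and 4.91. The groups were apart, with CTL library 2 closest to Dox, and the log2 fold change was -0.91 (SE 0.18, adjusted p = 0.0394 paired, 0.608 unpaired).

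Oasl2 had CTL signals of 26.3, 18.9 and 27.6 and Dox signals of 12.98, 12.5 and 15.4. The groups did not overlap, with a log2 fold change of -0.78 (SE 0.11, adjusted p = 0.0134 paired, 0.440 unpaired). Calls of Tmem173, Zbp1 and Oasl2 also held in the paired fit without each pair in turn. The other 5 were lost without pair 1.

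Isg15 had CTL signals of 13.5, 8.69 and 25.6 and Dox signals of 6.54, 6.50 and 12.5. Each pair fell, but the groups overlapped because CTL library 3 and Dox library 3 were both high. The log2 fold change was -0.76 (SE 0.13, adjusted p = 0.0310 paired, 0.885 unpaired), and without pair 1 the paired adjusted p was 0.0526. Gbp3, a guanylate-binding protein, had CTL signals of 8.47, 7.62 and 10.8 and Dox signals of 4.03, 4.598 and 6.52. All Dox libraries were lower, with a log2 fold change of -0.73 (SE 0.12, adjusted p = 0.0220 paired, 0.622 unpaired, 0.0936 paired without pair 1).

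Xaf1, a pro-apoptotic interferon-stimulated protein, had CTL signals of 11.3, 9.44 and 15.3 and Dox signals of 5.43, 6.92 and 9.42. The highest Dox library lay just below the lowest CTL library, with a log2 fold change of -0.66 (SE 0.13, adjusted p = 0.0371 paired, 0.769 unpaired, 0.218 paired without pair 1). Rtp4, a receptor transport protein induced by interferon, had CTL signals of 6.85, 4.62 and 9.29 and Dox signals of 3.02, 3.19 and 4.71. The groups overlapped at CTL library 2 and Dox library 3, with a log2 fold change of -0.75 (SE 0.14, adjusted p = 0.0333 paired, 0.750 unpaired, 0.115 paired without pair 1). Rtp4 shares 13.6% of its 50-base stretches with an overlapping gene, Gm45338. Parp14, an ADP-ribosyltransferase and the called member with seed matches, had CTL signals of 35.3, 34.0 and 30.3 and Dox signals of 23.95, 26.9 and 21.9. The groups were separate, with a log2 fold change of -0.44 (SE 0.09, adjusted p = 0.0409 paired, 0.604 unpaired, 0.383 paired without pair 1).

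**Figure D4:**
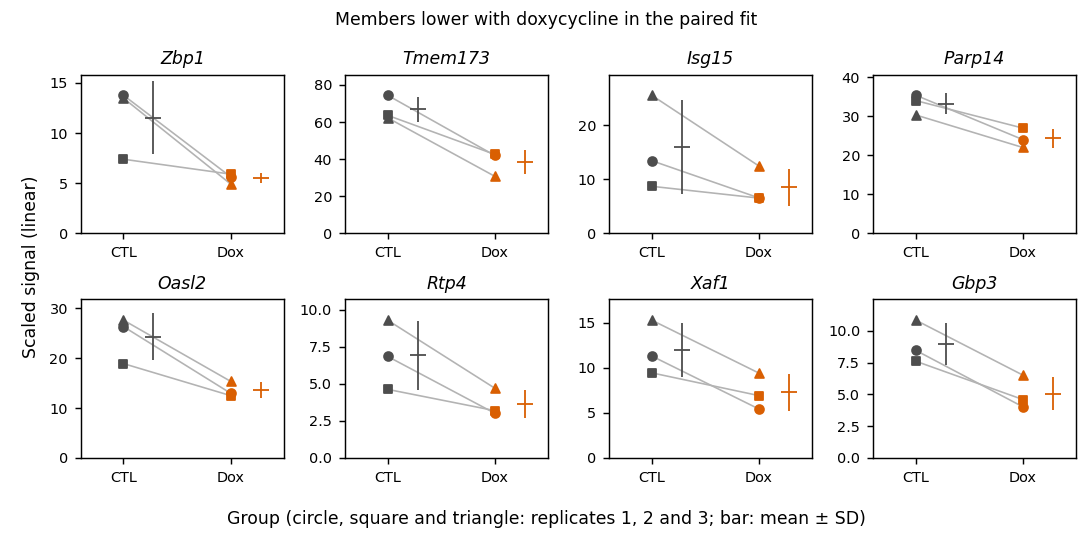
Scaled signal (linear axis from 0) of the 8 members called lower in the paired fit, in each CTL and Dox library, with grey lines joining libraries of the same replicate number and bars for the mean ± SD (n = 3). All lines fall from CTL to Dox, and the groups overlap for Isg15 and Rtp4.

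By role, all 6 sensors and adaptors were below 0 (median -0.34, 2 called in the paired fit), as were all 6 of the ISG15 group (median -0.38, 2 called) and all 5 OAS and PKR members (median -0.38, 1 called). Of the 14 effectors tested, 13 were below 0 (median -0.26, 2 called), and of the 5 GTPases 4 were (median -0.23, 1 called). The 6 receptor and transcription factor members had a median of -0.06 and the 3 antigen presentation members one of -0.16, with none called in the paired fit, though Irf7 and Stat2 in the former had log2 fold changes of -0.58 and -0.44. Differences between roles were not tested.

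Of the members with the highest signal per kilobase in their role, Tmem173 and Isg15 were called in the paired fit, and B2m, Ifitm3, Ifnar1, Eif2ak2 and Irgm1 were not. B2m had CTL signals of 522, 422 and 624 and Dox signals of 434, 384 and 593, overlapping ranges with a log2 fold change of -0.16 (paired SE 0.08, adjusted p = 0.320). Ifitm3 had CTL signals of 182, 197 and 304 and Dox signals of 151, 243 and 229, with a log2 fold change of -0.12 (paired SE 0.12, adjusted p = 0.670). Ifnar1 had CTL signals of 93.7, 99.4 and 93.1 and Dox signals of 92.9, 100.5 and 87.5, with a log2 fold change of -0.03 (paired SE 0.07). The ranges of all 3 genes overlapped between the groups.

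Eif2ak2 had CTL signals of 53.8, 52.2 and 67.5 and Dox signals of 42.8, 41.4 and 59.1, with a log2 fold change of -0.28 (paired SE 0.08, adjusted p = 0.105). Irgm1 had CTL signals of 40.7, 34.9 and 68.7 and Dox signals of 31.5, 30.0 and 63.4, with a log2 fold change of -0.23 (paired SE 0.08, adjusted p = 0.206). In both genes each pair fell while library 3 of both groups was high, so the groups overlapped. Stat2 and Irf7 just missed the threshold in the paired fit, with adjusted p of 0.0519 and 0.0539. The members under the filter, Oas1g and Mx1, had signals from 0.161 to 0.932.

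Across the CTL and Dox libraries, CTL library 3 was the highest of its group for 25 of 45 members and CTL library 2 the lowest for 29. The leukocyte markers summed to 232, 104 and 48.3 in CTL and 202, 107 and 37.2 in Dox, so their order followed the replicate number in both groups. Of 16 tested, 0 were called and 9 were below 0. Their part in the differences of the members was not tested.

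Of the other pathway genes, 81 were tested and 62 were below 0, with a median of -0.18. Without pairing 0 were called, and the paired fit called 6 lower and 0 higher. These were Sp100, a nuclear body protein (-0.65, adjusted p = 0.0241), Tlr3, the endosomal sensor of double-stranded RNA (-0.65, 0.0247), Cyld, a deubiquitinase (-0.53, 0.0210), Lgals9, a galectin (-0.51, 0.0371), Ifi203, a relative of Ifi204 (-0.46, 0.0452), and Ifngr2, an interferon gamma receptor chain (-0.39, 0.0433). All 6 calls were lost without pair 1. Tlr3 had CTL signals of 9.64, 9.44 and 8.39 and Dox signals of 5.99, 5.40 and 5.07, groups well apart. Among the 34 other interferon-stimulated genes tested, 32 were below 0, with a median of -0.27.

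**Figure D5:**
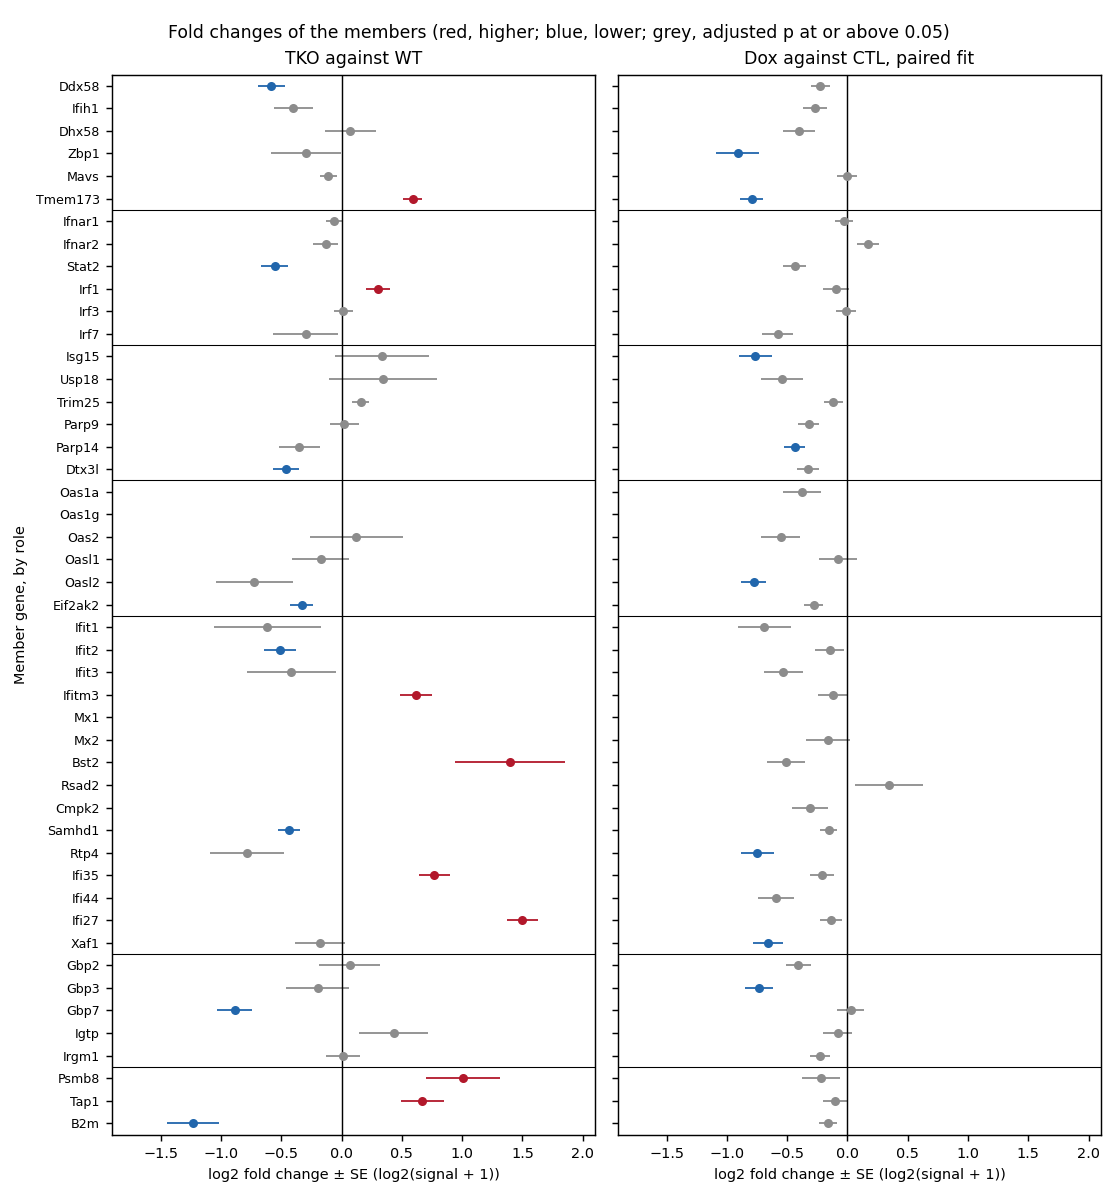
Log2 fold change ± SE of each member by role, TKO against WT on the left and Dox against CTL in the paired fit on the right. Red and blue mark members called higher and lower, grey those not called, and members under the filter have no point. The left panel holds 8 red and 8 blue points, the right panel 8 blue and no red.

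Set side by side, the comparisons use different control libraries and tables scaled apart. Of the 40 members tested in both, 20 were below 0 in both, 18 were above 0 in TKO and below 0 in Dox, 2 were the reverse, and 0 were above 0 in both. Tmem173 was the member called in both, 1.52-fold higher in TKO and 1.74-fold lower in Dox. All 8 members called higher in TKO were below 0 in Dox, and so were 7 of the 8 called lower in TKO. Since 42 of the 45 members tested in Dox were below 0 there, these counts largely follow from that. The same counts were not made over all genes. Oasl2 was below 0 in both, and Isg15 above 0 in TKO and below 0 in Dox.

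Members with and without an ISRE core were described in both comparisons. In TKO, 14 tested members with a core had a median log2 fold change of -0.37 (2 called higher, 5 lower), and 17 without one had -0.13 (4 higher, 3 lower). In Dox, 16 with a core had a median of -0.27 (1 called lower in the paired fit) and 19 without had -0.16 (3 called lower). With a core in any window counted, which moves Gbp3, 17 with a core had a median of -0.28 (2 called lower) and 18 without had -0.15 (2 called lower). The difference between these sets was not tested.

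The identity of the cultures was checked on marker lists. The 10 stromal progenitor markers, such as Pdgfra and Col1a1, summed to between 23351 and 38273 in each library, against 37.2 to 367 for the leukocyte markers and 60.3 to 155 for the endothelial ones. Most of each stromal sum was Col1a1 and Col1a2, with signals of 9094 and 9988 in WT library 1. There the stromal markers Cd34 and Dpp4 were at 18.9 and 7.91, and the leukocyte marker Lyz2 at 24.1. Such sums do not give the shares of the cell types. Of the leukocyte list, Cd3e, Cd3g, Nkg7, Cd79a, Siglech and Flt3 were among those not analysed here. Recovered reads per library ran from 54978109 to 61307137 in WT and from 71455180 to 83461531 in TKO, so every TKO library was deeper than every WT library. They ran from 19301969 to 25785460 in CTL and Dox. Mature miR-26 was not measured by these messenger RNA libraries, so the labels could not be checked on the altered genes themselves.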

How the data were processed

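Per the submitters' processing notes, TopHat2 2.0.12, featureCounts 1.4.6, edgeR 3.8.6 and StringTie 1.2.2 were used with GRCm38 (mm10). The strand setting of counting is not given in the sources used here. The signal values deposited by the authors are read counts scaled per library, and the lowest steps gave whole reads within 0.1 for 99.3% or more of the values of each library. The log2 fold changes, the likelihood ratio score and the p-values with their false discovery rates are results of the authors' own deposited test. The score was not used.

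Here limma 3.58.1 (R 4.3.3) was fitted with a trend to log2(signal + 1), separately for each table since they were normalized apart, on genes with signal of at least 1 in at least 3 libraries. P-values were adjusted by Benjamini-Hochberg over all genes tested. The plan was limma for scaled values or edgeR for counts, and the tables hold scaled values. edgeR 4.0.16 and DESeq2 1.42.0 on recovered reads were alternatives, on which edgeR called 5769 genes for loss of miR-26 and 0 for doxycycline, where limma called 5796 and 0. Deviations of same-numbered libraries correlated at 0.863, 0.584 and 0.736 over genes in CTL and Dox, and the block on this number is given beside the results. In WT and TKO the values were 0.449, -0.135 and -0.293, so the numbers were not taken to pair these libraries. All columns matched a sample, by group and replicate number, though the columns of Dox replicates 2 and 3 share a suffix whose meaning is not given in the sources used here. Depth covers counting error only.

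Members and lists were chosen with earlier results of these data known. Members were named if they were Isg15 or Oasl2, if they passed the threshold in either comparison (paired fit included), or if they had the highest signal per kilobase of their role. Pathway genes were named if among the 10 largest called changes, and 1 gene was taken out of that list after the analysis and is not reported here. Promoter and seed matches were printed for at most 8 called members. The scripts were tested on simulated data.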

Additional observations from a re-analysis of the deposited data

How the results depend on the processing

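Each result was recomputed with edgeR, DESeq2, other scaling, pseudocounts of 0.5 and 0.1, other filters, a length and GC trend removed, a replicate block, and each library left out. In TKO against WT, members called higher (8) were 5 without a filter, 4 with the length and GC trend removed and 5 with that and the replicate block, and 4 to 7 with a library left out. Members called lower (8) were 5 with library-size scaling, 4 with the block and trend removed, and 5 to 12 with a library left out. Over all genes, with a library left out, 2079 to 2898 were called higher (2930 in the main fit) and 1859 to 2825 lower (2866). With the trend removed these counts were 3083 and 2768, or 2597 and 2363 with the block as well. Pathway genes called higher (12) were 6 to 15, and those called lower (20) 12 to 22, with a library left out. The pathway genes called lower were 11 with library-size scaling, 13 with the trend removed and 12 with the block as well. The block alone, on numbers that do not pair WT with TKO, gave 7 members higher and 8 lower, 10 and 17 pathway genes and 5101 of 5796 genes. The median log2 fold change of the members ran from -0.24 to 0.010 with a library left out, and from -0.15 to -0.010 otherwise.

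In Dox against CTL, 0 members, pathway genes and genes were called without pairing, in 6 of 6 fits with a library left out too. DESeq2 called 3 members, 4 pathway genes and 99 genes. The replicate block called 8 members, 6 pathway genes and 265 genes, and 16, 16 and 971 after trend removal. Leaving out pair 1, 2 or 3 within the block was chosen after seeing the data. It called 3, 23 and 14 members lower, 1, 0 and 0 higher, 0, 22 and 15 pathway genes lower and 134, 1534 and 591 genes. The median of the members was -0.37 to -0.20 throughout.

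Named genes that changed sign were uncalled. In TKO, Ifnar1 was 0.065 with library-size scaling and 0.011 with the trend removed, with or without the block, and Irgm1 was -0.0030 in DESeq2. With a library left out, Isg15 ran from -0.055 to 0.73, Xaf1 from -0.34 to 0.056, Gbp3 from -0.38 to 0.052 and Irgm1 from -0.085 to 0.15. In Dox with a library left out, Ifnar1 ran from -0.080 to 0.019, Irf1 from -0.23 to 0.066, Ifitm3 from -0.26 to 0.11, Ifi27 from -0.30 to 0.099, Gbp7 from -0.048 to 0.11, Irgm1 from -0.57 to 0.056 and Psmb8 from -0.39 to 0.11. Within the block without pair 3, Ifnar1 was 0.0020, Ifitm3 0.019, Gbp7 -0.070 and Psmb8 0.040. Members with a signal near or below 1 rest on few reads, and Mx1 and Oas1g, below 1 in every library, were not tested. Counting an ISRE core in any promoter window was chosen after seeing the data. The causes were not tested.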
